A study of Mus musculus with 16 samples.

Results

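The genes described here are those that cut proteins into peptides and show the peptides at the cell surface: the mouse histocompatibility (H2) genes, a set of partners that load peptide onto their products (B2m, Tap1, Tap2, Tapbp, Cd74, Ciita, Erap1 and Ctss), and the proteasome subunits. They were chosen by symbol: every array probe annotated to a symbol that starts with H2-, to a proteasome subunit symbol (Psma to Psmg followed by a number), or to 1 of those partners. This gave 72 probes for 58 genes, of 12771 probes for 9030 genes that carry a symbol. Tap2, Ciita, H2-D1 and H2-Aa were not analysed here. The values came from 16 two-colour cDNA arrays, 8 for the spleen and 8 for the thymus, of male mice aged 17 weeks. In each tissue 4 EMP3 mutant mice were hybridised one by one against a pool of male wild-type RNA of the same tissue and age, and each mouse was measured on 2 arrays, once with its RNA in Cy5 and once in Cy3. By the channel labels RNA of 4 wild-type mice was pooled, although the labelling protocol counts 6. EMP3 belongs to the PMP22 family of small proteins that span the membrane, and neither the type of mutation nor the strain is given.

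The proteasome is a barrel of stacked rings. The outer rings are made of alpha subunits, which form the gate, and the inner rings of beta subunits, some of which cut the chain. A regulatory particle with a ring of ATPases and a set of non-ATPase subunits binds ubiquitin-tagged proteins and feeds them into the barrel. Peptides made in the cytosol are carried by the Tap transporter into the endoplasmic reticulum and loaded on class I molecules, which nearly all cells display to cytotoxic T cells. Class II molecules are made by B cells, dendritic cells, macrophages and thymic epithelium, are held closed by the invariant chain Cd74, and receive peptides in endosomes for display to helper T cells. The spleen is rich in such cells, and in the thymus both classes serve the selection of T cells.

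The deposited values are log ratios, read here as log2 of mutant over pool. Neither the log base nor the direction is stated. The direction is the likely one from the design text, and with the pool as numerator all directions given here would turn round. The pool is 1 control sample, so its own spread is not in the tests. Array medians lay between -0.023 and 0.086. Across probes, the arrays of each spleen pair correlated at 0.052 to 0.424, and those of thymus mice 1, 3 and 4 at -0.44 to -0.249. The thymus pair of mouse 2 was mirrored almost value for value (r = -0.922), and that mouse was left out of the thymus. The mean of a mouse's pair was 1 replicate, with n = 4 for spleen and n = 3 for thymus.

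The gene names needed a correction that bears on every value below. In the annotation a probe carries an ID, and with IDs matched as given, probes of genes that normally share their signal did not do so. Over 15 pairs of alpha globin (Hba-a1) probes the mean Pearson correlation across the 16 arrays was 0.0238 with the IDs as given. With each name moved to the row whose ID is 11 higher, it was 0.957. Over 3403 pairs of ribosomal protein probes the mean was -0.0013 as given and 0.549 at the offset of 11 rows, and between -0.006 and 0.0476 at all other offsets up to 100 rows either way, and wider offsets had been looked at too. Over 4039 pairs of distant probes of the same gene the mean was low at every offset, 0.0321 at 11 rows against 0.0115 as given and at most 0.0234 elsewhere. In each of 10 stretches of the ID range the ribosomal probes correlated best at 11 rows. Each stretch, with 3 to 13 probes, was compared with the mean ribosomal profile of the other stretches. That profile was itself read at 11 rows, so the stretches are no independent checks. None of these probes belongs to the genes described here. Names were therefore read 11 rows further on. This reading was found from the values, no label states it, and it was made after values of the H2 and proteasome genes had been seen under both readings. The counts with IDs as given are printed beside the counts for spleen and for the difference.

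**Figure D1:**
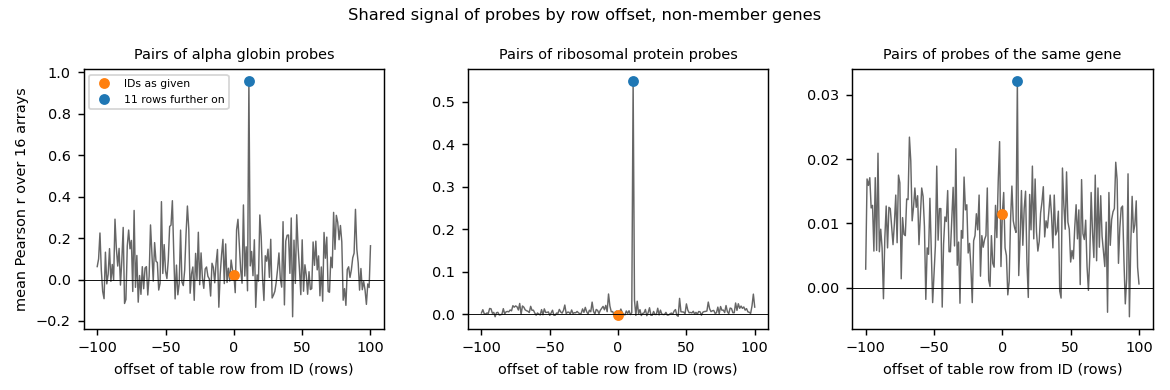
Mean Pearson correlation over 16 arrays (vertical axis, a separate scale in each panel) of pairs of alpha globin, ribosomal protein and same-gene probes, for each offset between annotation ID and row (horizontal axis, in rows). The correlation peaks at 11 rows (0.957, 0.549 and 0.0321) and is 0.0238, -0.0013 and 0.0115 with the IDs as given.

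Emp3, the mutated gene, has 2 probes. In the spleens of mice 1 to 4 probe 11822 read -0.87, -0.63, -0.72 and -0.475, a mean of -0.67 ± 0.17 (SD, n = 4), 1.60-fold lower than the pool (limma, Benjamini-Hochberg adjusted p = 0.00447). It was below 0 on the array of either dye in each of the 4 spleens. In thymus it was at -0.72, -0.15 and -0.31 in mice 1, 3 and 4 (-0.395 ± 0.30, SD, n = 3) and did not pass (limma, adjusted p = 0.866). The other probe, 4348, measured 0.19 ± 0.14 (SD, n = 4) in spleen and -0.07 ± 0.08 (SD, n = 3) in thymus, with no call in either (limma, adjusted p = 0.122 and 0.866). Which part of the transcript either probe covers is not given in the sources used here.

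In spleen 29 of the 71 H2, partner and proteasome probes tested passed an adjusted p of 0.05, 25 lower and 4 higher in the mutants. Over all probes 25.3% passed, 13.4% higher and 11.9% lower, so that the lower calls were 35.2% of these probes against 11.9% in general. The median log2 ratio was -0.24 over these probes and 0.04 over all probes. With IDs as given, 16 of these probes passed, 10 of them lower. A lower signal in whole spleen RNA can mean fewer cells of a type or less RNA per cell, which cannot be told apart here. The calls rest on the mice taking part and on leaving the pool's spread out. The count was 16 when mouse 2 was left out and 18 when mouse 4 was, and 12 of the 29 calls passed whichever mouse was left out. When a variance for the pool was added, assuming 4 pooled mice that vary like the mutants, 7 passed, which is 9.86% of these probes against 8.39% of all probes.

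Of 10 class II probes for 7 genes, 7 were lower in the mutant spleens, 3 did not pass and none was higher, against 11.9% of all probes lower. The 7 lower probes belong to H2-Eb1, Cd74, Ctss, H2-DMb1 and H2-Oa. Cd74 alone gave 3 of them, so the count of probes is not a count of genes. All 10 means were below 0, with a median of -0.48 (lowest -0.55, highest -0.20). Without 1 mouse, 5 to 8 of them passed, and with the pool's variance 1 did, Cd74 probe 16979, where 8.39% of all probes passed. The count was 1 of 10 with IDs as given. Class II genes share a promoter element, the X box, to which the regulatory factor X complex binds and recruits the coactivator Ciita, and a CCAAT box (the Y box) lies just downstream of it. The promoters of 3 genes of this group that were lower are shown because they hold the letters of the X box, searched as ACNGATG, its end, on both strands in the 250 bases before to 50 after each RefSeq start. These letters were in 4 of the 5 class II genes that have a window (Ctss besides those shown) and in 9.85% of 32851 windows of that length. They were in 10 of all 50 genes described here that have a window. CCAAT was in 4 of the 5, in 25 of the 50 and in 37.4% of all windows. A gene was counted when any of its windows matched, so shares of genes and of windows are not alike. Capitals mark the X box letters and CCAAT read on the other strand, and coordinates are of GRCm38.p6.
H2-Eb1, chr17:34305727-34305816, plus strand: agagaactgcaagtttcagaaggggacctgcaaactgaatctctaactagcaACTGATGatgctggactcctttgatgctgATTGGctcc
H2-DMb1, chr17:34153051-34153140, plus strand: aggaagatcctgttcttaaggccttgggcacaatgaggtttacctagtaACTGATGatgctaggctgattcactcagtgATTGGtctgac
H2-Oa, chr17:34092189-34092288, plus strand: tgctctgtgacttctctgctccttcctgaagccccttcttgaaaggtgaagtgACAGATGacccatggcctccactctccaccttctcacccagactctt
The X box letters begin 88 bases before the start in H2-Eb1, 91 in H2-DMb1 and 137 in H2-Oa. In H2-Eb1 and H2-DMb1 the reversed CCAAT follows within the stretch shown, and in the stretch of H2-Oa these letters are not present. A match of letters is a description and not a measured binding site.

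H2-Eb1, the beta chain of the class II E molecule, was at -0.86, -0.32, -0.57 and -0.37 in the spleens of mice 1 to 4. All 4 spleens were below the pool and the mean was -0.53 ± 0.24 (SD, n = 4), or 1.44-fold lower (limma, adjusted p = 0.0163). H2-Ab1, the beta chain of the class II A molecule, was at 0.15, -0.60, -0.53 and -0.92. Its mean of -0.48 was close to that of H2-Eb1, but mouse 1 lay above the pool and the gene did not pass (SD 0.45, limma, adjusted p = 0.0876).

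Cd74, the invariant chain that fills the class II groove until it is cut away, has 3 probes, and all were lower. In mice 1 to 4 probe 16979 read -0.69, -0.48, -0.40 and -0.51, a mean of -0.52 ± 0.12 (SD, n = 4; limma, adjusted p = 0.00593). Probe 6906 was at -0.975, -0.37, -0.50 and -0.37, and probe 6360 at -0.64, -0.27, -0.44 and -0.31. All 12 pair means were below 0, and mouse 1 was the lowest at each probe. In mouse 3 the fall came mostly from 1 array. With the mutant in Cy5 probes 16979, 6906 and 6360 read -0.763, -0.888 and -0.873, and in Cy3 -0.034, -0.116 and 0. The 3 probes also moved together across the 16 arrays (r = 0.94, 0.87 and 0.76), as a description of arrays that share the pool. Ctss, the cathepsin that cuts Cd74 in antigen-presenting cells, was at -0.87, -0.38, -0.52 and -0.20. It was below the pool in all 4 spleens, by -0.49 ± 0.28 (SD, n = 4; limma, adjusted p = 0.027). Without mouse 4 probes 6360 and 6906 just missed the threshold (-0.45 and -0.615, limma, adjusted p = 0.0507 and 0.0504), and Ctss missed it without mouse 2 or 3 (-0.53 and -0.485, limma, adjusted p = 0.0712 and 0.0668).

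H2-DM is the chaperone that exchanges the last Cd74 fragment for peptide. Its beta chain H2-DMb1 has 2 probes. In mice 1 to 4 probe 251 read -0.33, -0.55, -0.41 and -0.33, and it was lower (-0.40 ± 0.10, SD, n = 4; limma, adjusted p = 0.0101). Probe 15427 had a similar mean (-0.49) but ranged from -1.05 to 0.12 and did not pass (limma, adjusted p = 0.105). Across the arrays both probes were uncorrelated (r = -0.003). The alpha chain H2-DMa was at -0.52, 0.03, -0.22 and -0.09 and did not pass (limma, adjusted p = 0.193). H2-Oa, a chain of the H2-O molecule that holds H2-DM back, was at -0.19, -0.31, -0.20 and -0.28. Those 4 pair means lie within a narrow band below 0, and the mean of -0.25 ± 0.06 (SD, n = 4) passed (limma, adjusted p = 0.032). Single arrays were wider apart, with mouse 3 at -0.475 with the mutant in Cy5 and 0.066 in Cy3. The H2-Oa call was lost when mouse 2, 3 or 4 was left out (-0.23, -0.26 and -0.235, limma, adjusted p = 0.122, 0.0634 and 0.12) or when a running median along the ID order was removed (-0.20, adjusted p = 0.0606).

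**Figure D2:**
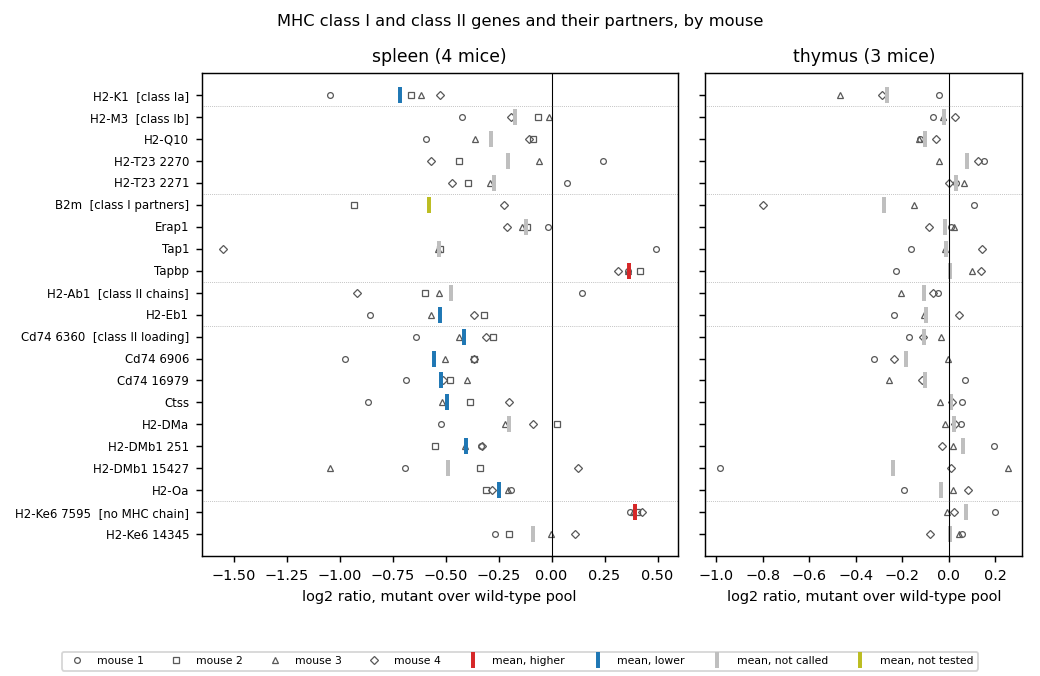
Log2 ratio of mutant over pool (horizontal axis) of each class I, class II and partner probe in spleen (left, 4 mice) and thymus (right, 3 mice, with its own axis scale); open symbols are mice and bars are means, coloured by the call. In spleen all 10 class II means lie below 0 and 7 pass, while class I means run from -0.71 for H2-K1 to 0.36 for Tapbp; no thymus mean passes.

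Of 8 class I probes tested, 1 was lower and 1 was higher, 25% against the 25.3% called over all probes, with a median of -0.24. With IDs as given 3 class I probes passed. H2-K1, the classical class I heavy chain on this array, was the lowest of them. It was at -1.05, -0.665, -0.615 and -0.53 in the spleens of mice 1 to 4. Every spleen was far below the pool, and the mean of -0.71 ± 0.23 (SD, n = 4) is 1.64-fold lower (limma, adjusted p = 0.00605). It was the only one of the 71 probes to pass a test against a change of 1.2-fold (limma treat, adjusted p = 0.0467), and it passed without any 1 mouse and with the pool's variance added (limma, adjusted p = 0.0378). Its direction depends on the reading of the names: with IDs as given the probe called H2-K1 was higher (0.32, limma, adjusted p = 0.0407). With the Cy3 arrays turned H2-K1 was at -0.16 and did not pass (limma, adjusted p = 0.236). Classical class I promoters carry an enhancer with a site for the NF-kappaB and Rel factors. The middle of that site, GGATTCC on either strand, was in a window of 1 of the 8 class I genes that have one, H2-K1, and in 3.79% of all windows. The stretch before the first of the 2 RefSeq starts of H2-K1 is shown with these letters in capitals, and they begin 109 bases before the start.
H2-K1, chr17:34000417-34000486, minus strand: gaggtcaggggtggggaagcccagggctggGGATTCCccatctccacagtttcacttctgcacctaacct

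The non-classical class I genes had 4 probes, none of which passed. H2-T23, which encodes the ligand of an inhibitory receptor of natural killer cells, was at 0.24, -0.44, -0.06 and -0.57 at probe 2270 and at 0.07, -0.40, -0.29 and -0.47 at probe 2271. The 2 probes ranked the mice alike (r = 0.86 over 16 arrays), and mouse 1 stood above the pool at both. H2-M3, which presents formylated peptides of bacteria and mitochondria, was at -0.17 ± 0.18, and the secreted H2-Q10 at -0.29 ± 0.24 (both SD, n = 4; limma, adjusted p = 0.19 and 0.089). All 4 means were below 0, between -0.29 and -0.17.

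Of the class I partners 1 probe passed, as higher, 2 did not pass and 1 was not tested. Tapbp, the tapasin that holds class I molecules at the Tap transporter, was at 0.36, 0.42, 0.36 and 0.31 in mice 1 to 4. It was above the pool in all 4 spleens with little spread, by 0.36 ± 0.04 (SD, n = 4; limma, adjusted p = 0.00918). With a running median along the ID order removed it was at 0.11 and did not pass (limma, adjusted p = 0.278). Tap1, a chain of the peptide transporter, was at 0.49, -0.525, -0.54 and -1.55, the widest range of any of the 71 probes tested, and did not pass (limma, adjusted p = 0.238). The aminopeptidase Erap1, which trims peptides for class I, was at -0.12 ± 0.08 (SD, n = 4; limma, adjusted p = 0.208). B2m, the light chain of all class I molecules, was measured on both arrays of only 2 mice (-0.93 in mouse 2 and -0.23 in mouse 4) and was not tested. H2-Ke6 carries an H2 name by its place in the locus but encodes a steroid dehydrogenase. Its probe 7595 was higher, at 0.37, 0.40, 0.38 and 0.43 (limma, adjusted p = 0.00678), and its probe 14345 was at -0.09 ± 0.175 (SD, n = 4) with no call.

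Set side by side, the class I median was 0.24 above the class II median on the log2 scale. Mouse by mouse, the class I median minus the class II median was 0.69, 0.10, 0.25 and -0.02, a mean of 0.255 with an SD of 0.31. The difference was thus smaller than its spread between mice and rested mainly on mouse 1, whose class II median was -0.66 and class I median 0.03. With IDs as given the medians of both classes differed by 0.01, and with the Cy3 arrays turned by 0.10.

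Of 19 proteasome core probes 9 were lower in the mutant spleens, 1 was higher and 9 did not pass, with a median of -0.28. The share called was 52.6%, against 25.3% of all probes called and 11.9% of all probes lower. The IDs as given left 5 of the 19. With the pool's variance, where 8.39% of all probes passed, 4 did: Psma2, Psma4, Psma5 and Psmb7. All 6 alpha probes on the array passed as lower, against 11.9% of all probes, with a median of -0.44. Psma1 was at -0.61, -0.57, -1.27 and -0.60 in mice 1 to 4, so that 3 spleens lay close together and mouse 3 far below them. Its mean was -0.76 ± 0.34 (SD, n = 4), or 1.69-fold lower (limma, adjusted p = 0.0112), and -0.59 without mouse 3. Psma2 was at -0.52, -0.43, -0.78 and -0.58 (-0.58 ± 0.15, SD, n = 4; limma, adjusted p = 0.00566), and mouse 3 was again the lowest.

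Psma4 and Psma5 had the narrowest spread of the alpha subunits. Psma4 was at -0.49, -0.39, -0.39 and -0.47, and Psma5 at -0.34, -0.415, -0.485 and -0.54 (limma, adjusted p = 0.00603 and 0.00677). Psma6 was at -0.38, -0.44, -0.51 and -0.29 (limma, adjusted p = 0.00904). The smallest change was that of Psma7, at -0.215, -0.17, -0.37 and -0.19 (limma, adjusted p = 0.0453), whose call was lost whichever mouse was left out (-0.26 to -0.19, limma, adjusted p from 0.0694 to 0.119). The calls of the other 5 alpha probes held without any 1 mouse. With IDs as given 1 of the 6, Psma4, passed.

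Of 9 probes for standard beta subunits 2 were lower and none was higher. This was 22.2%, against 11.9% of all probes lower and 25.3% called in either direction. Psmb7, the subunit with trypsin-like activity, was at -0.905, -0.43, -0.62 and -0.465, a mean of -0.60 ± 0.22 (SD, n = 4; limma, adjusted p = 0.00843). Every pair mean was below the pool, but the arrays of mouse 2 read -0.855 with the mutant in Cy5 and -0.002 in Cy3. Psmb4, a beta subunit that does not cut, was at -0.48, -0.47, -0.37 and -0.19 at probe 7064 and passed (limma, adjusted p = 0.0167), though not without mouse 2 (-0.35, adjusted p = 0.0718). Its probe 15580 was at -0.34, -0.38 and -0.13 in the 3 mice measured and did not pass (limma, adjusted p = 0.0739). The 6 other probes, for Psmb1, Psmb2, Psmb3, Psmb5 and Psmb6, had means from -0.24 to 0.13 and did not pass.

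In cells that present antigen, 3 inducible subunits replace the standard ones that cut, and cortical thymic epithelium uses a further one, Psmb11. Psmb9 was at -0.545, -0.24, -0.205 and -0.35 in spleen and was lower (-0.33 ± 0.15, SD, n = 4; limma, adjusted p = 0.0281). Psmb8 and Psmb10 were also below the pool in all 4 spleens, at -0.255 ± 0.22 and -0.40 ± 0.33 (SD, n = 4), but did not pass (limma, adjusted p = 0.102 and 0.0697). Psmb11 was at 0.28, 0.62, 0.30 and 0.375 and was higher (0.39 ± 0.16, SD, n = 4; limma, adjusted p = 0.018). Both calls were lost without mouse 2 (-0.365 for Psmb9 and 0.32 for Psmb11, limma, adjusted p = 0.0719 and 0.061) and without mouse 4 (-0.33 and 0.40, limma, adjusted p = 0.0986 and 0.0682), and that of Psmb11 also with a running median along the ID order removed (0.14, adjusted p = 0.216).

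**Figure D3:**
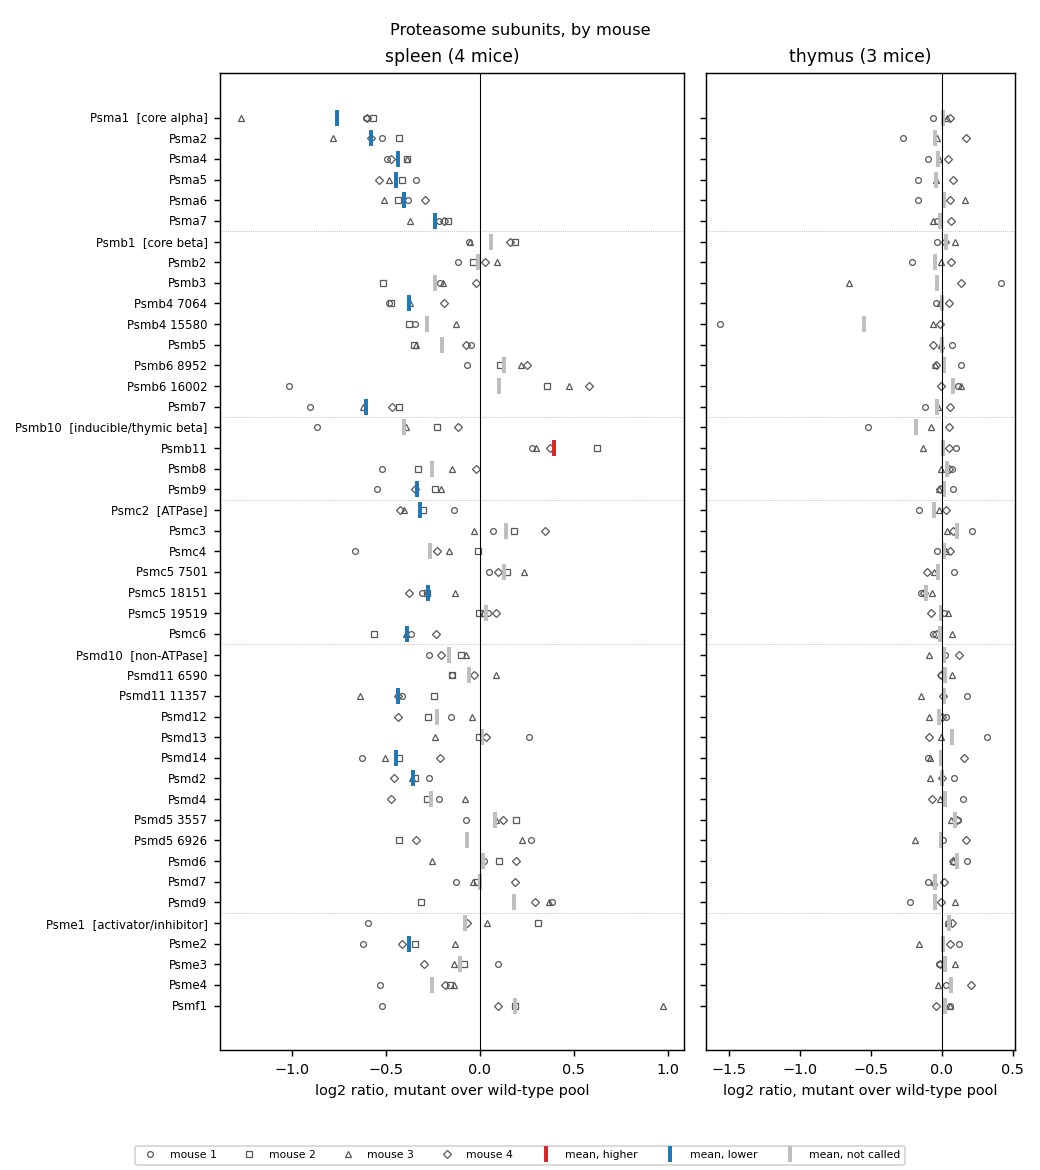
Log2 ratio of mutant over pool (horizontal axis) of each proteasome core, regulatory and activator or inhibitor probe in spleen (left, 4 mice) and thymus (right, 3 mice, with its own axis scale); open symbols are mice and bars are means, coloured by the call. All 6 alpha probes are lower in spleen and Psmb11 alone is higher; no thymus mean passes.

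Of 20 probes grouped by symbol (Psmc and Psmd) as the regulatory particle 6 were lower and none was higher. This was 30%, against 11.9% of all probes lower and 25.3% called in either direction, with a median of -0.12. The IDs as given left 4. Without 1 mouse 2 to 5 passed, and with the pool's variance none did (limma; 9 had an unadjusted p under 0.05 without it). Among the ATPases, which unfold the substrate, Psmc6 was at -0.37, -0.56, -0.39 and -0.235 (limma, adjusted p = 0.0151). Psmc2 was at -0.14, -0.30, -0.40 and -0.42 (limma, adjusted p = 0.027). Psmc5 has 3 probes that disagreed: probe 18151 was lower (-0.27 ± 0.10, SD, n = 4; limma, adjusted p = 0.0331), and probes 7501 and 19519 were at 0.13 and 0.03 with no call. The remaining ATPase probes, for Psmc3 and Psmc4, did not pass. Without mouse 2 none of the 3 calls held (-0.33 for Psmc6, -0.32 for Psmc2 and -0.27 for Psmc5 probe 18151; limma, adjusted p = 0.0612, 0.089 and 0.109). Psmc2 was also lost without mouse 3 or 4 (-0.29 and -0.28) and Psmc5 probe 18151 without mouse 1 or 4 (-0.26 and -0.24).

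Among the 13 probes with Psmd symbols, taken as the non-ATPase group, 3 were lower (23.1%) and none was higher. Over all probes 11.9% were lower and 25.3% were called in either direction. Psmd14, the enzyme that cuts ubiquitin off the substrate, was at -0.63, -0.43, -0.50 and -0.21 (-0.44 ± 0.17, SD, n = 4; limma, adjusted p = 0.0146). Psmd11, a scaffold subunit, was at -0.41, -0.25, -0.64 and -0.44 at probe 11357 (limma, adjusted p = 0.0139). Its probe 6590 was at -0.06 ± 0.11 (SD, n = 4) with no call. Psmd2, a large scaffold of the base, was at -0.27, -0.35, -0.36 and -0.46 (limma, adjusted p = 0.0117), with the 4 pair means close together. In mouse 3 its arrays read -0.786 with the mutant in Cy5 and 0.062 in Cy3. Psmd14 missed the threshold without mouse 2 (-0.45, limma, adjusted p = 0.0573), Psmd11 probe 11357 without mouse 4 (-0.43, adjusted p = 0.059) and Psmd2 without mouse 2 or 4 (-0.36 and -0.33, adjusted p = 0.0519 and 0.0594). The other probes of this group had means from -0.26 (Psmd4) to 0.18 (Psmd9). Psmd5, Psmd9 and Psmd10 fell in the group by symbol. They encode chaperones that help to assemble the base, and their probes ran from -0.16 to 0.18 with no call.

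Of 5 probes for the activators and the inhibitor Psmf1, 1 was lower (20%, against 11.9% of all probes lower and 25.3% called in either direction). Psme2, a chain of the activator that interferon gamma induces, was at -0.62, -0.34, -0.13 and -0.42 (limma, adjusted p = 0.0309), and was lost without mouse 1, 2 or 4 (-0.30, -0.39 and -0.365; adjusted p from 0.0561 to 0.106). Its partner chain Psme1 was at -0.60, 0.31, 0.04 and -0.07 and did not pass (limma, adjusted p = 0.718). The assembly chaperones Psmg1 and Psmg2 were near the pool, at 0.07 and -0.09. The symbol rule also took in Psme3ip1, an interactor and no subunit, whose 4 probes ran from -0.355 (lower, probe 14785) to 0.22 (higher, probe 1641), with both calls lost in at least 3 of the 4 fits without 1 mouse, and Psmc3ip, a recombination protein, at 0.12 with no call.

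Compared as groups, the core median lay 0.166 below the regulatory median. The regulatory group includes the probes of the chaperones Psmd5, Psmd9 and Psmd10, and a median without them was not computed. Mouse by mouse the core median minus the regulatory median was -0.24, -0.15, -0.26 and 0.06, a mean of -0.148 with an SD of 0.145. The core was the lower group in 3 of 4 spleens, by about as much as the spread between mice, and the inner division of the core was as wide, since the alpha median was -0.44 and the standard beta median -0.20. With the Cy3 arrays turned, as described further on, the core and regulatory medians differed by -0.015.

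**Figure D4:**
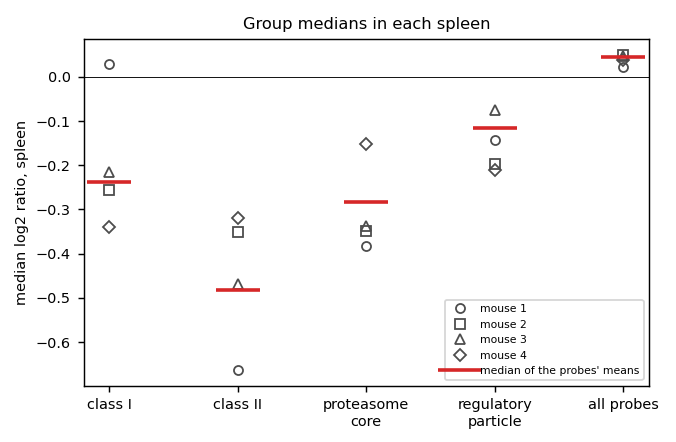
Median log2 ratio in spleen (vertical axis) of the class I, class II, proteasome core and regulatory particle probes and of all probes, in each mouse (open symbols) and over the probes' means (red bars). The class II median is below 0 in every mouse (-0.66 to -0.32), the class I median is 0.03 in mouse 1 and -0.34 in mouse 4, and the median of all probes stays between 0.02 and 0.05.

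Signs were mostly shared by the 2 dyes in spleen. Averaged over the mice, 56 of the 72 probes had the same sign with the mutant in Cy5 and in Cy3, against 60.4% of all probes. So did 29 of the 29 called probes, against 96.6% of all called probes. A call needs pair means away from 0, which favours shared signs, so the last count is no separate check. Single arrays could still differ in sign. Psmc2 averaged -0.561 in Cy5 and -0.069 in Cy3, but its Cy3 arrays in mice 1 and 2 read 0.159 and 0.019. The class II median was -0.58 with the mutant in Cy5 and -0.33 in Cy3, and the core median -0.35 and -0.32. These readings take the ratios as already turned to the same orientation on both kinds of array. If the arrays with the mutant in Cy3 still had to be turned, 0 of the 71 probes and 1 of all 20127 would pass in spleen (limma).

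There were 10 genes with more than 1 probe, which gave 19 pairs of probes, and 11 of the pairs had the same sign in spleen. Besides Cd74 and H2-T23, the pair of Psmb6 correlated over the arrays (r = 0.54). For Psmc5, Psmd5, H2-Ke6 and Psme3ip1, probes of the same gene differed in sign. A call at 1 probe of those genes is a call of that probe.

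Other genes of the same routes were read from lists that held no gene described above, with 25.3% of all probes called in spleen, 13.4% higher and 11.9% lower, as the background. Of 11 probes for class I helpers 4 (36.4%) were lower and none was higher, with a median of -0.07. They included the endoplasmic reticulum chaperones Calr (-0.56 ± 0.10, SD, n = 4; limma, adjusted p = 0.00454) and Canx (probe 3919, -0.51 ± 0.05, SD, n = 4; limma, adjusted p = 0.00427) and the translocon subunit Sec61b. Of the other Canx probes, 8771 was lower (-0.29) and 5595 was at 0.16 with no call. Of 14 probes for class II helpers 4 (28.6%, against 11.9% of all probes lower) were lower and none was higher, with a median of -0.06. Ifi30, the thiol reductase of the endosome, was at -0.53 ± 0.07 (SD, n = 4; limma, adjusted p = 0.00424) and Ctsb probe 15386 at -0.75 ± 0.16 (SD, n = 4; limma, adjusted p = 0.00401), while the other Ctsb probe, 4243, was at 0.001 with no call (limma, adjusted p = 0.996). The 5 probes for Rfx5, Rfxank and the ubiquitin ligase Marchf1 did not pass, and Marchf8 was lower. Of 14 tested probes for proteasome partners 5 (35.7%) were lower and none was higher, among them both probes of Sem1, a small regulatory subunit with a name outside the rule, at -0.52 and -0.51 (limma, adjusted p = 0.00417 and 0.00511). Of 10 probes of the interferon gamma route 3 (30%) passed: 1 was lower (Ifngr1, a receptor chain, -0.66 ± 0.10, SD, n = 4; limma, adjusted p = 0.00401) and 2 were higher (Jak1 probe 6169 and Socs1).

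Markers of the cells that carry class II, and of other cells of both tissues, were counted beside these results. The background was again 25.3% of all probes called, 13.4% higher and 11.9% lower. Of 5 B cell probes 3 were lower (Ms4a1, Cd79b and Cd22) and none was higher, with values from -0.46 to 0.29. Of 6 tested dendritic cell probes none passed (limma; 1 had an unadjusted p under 0.05), with a range of -0.28 to 0.25. Of 7 macrophage probes 2 (28.6%) were lower (Cd163 and Marco), with a range of -0.72 to -0.12. Of 11 T cell probes 2 were higher and 2 lower (36.4% called), and of 3 cortical thymocyte probes 1 was higher and 1 lower. Of 15 thymic epithelium probes, a list that includes Psmb11, 7 (46.7%, against 13.4% of all probes higher) were higher and none was lower, with a median of 0.315. All of those 7 but Epcam probe 13545 lie close together in the ID order, from Foxn1 probe 6135 to Ccl25 probe 6410. With a running median along that order removed, the Psmb11 call was lost (0.14, limma, adjusted p = 0.216). The other probes of the list were not refitted in this way. The 9 erythroid probes had a median of -0.61 and 1 was lower; their median by mouse was 0.42, -0.76, -0.59 and -1.59, with mouse 1 the highest and mouse 4 the lowest, as for Tap1 and H2-Ab1. The part of any of these cells in the results was not tested.

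In thymus none of the 72 probes passed (limma; 3 had an unadjusted p under 0.05), and over all probes 0% passed, 0 of 20130, with 725 at an unadjusted p under 0.05. The median of the 72 probes was -0.002. Means ran from -0.55 to 0.21. The lowest, Psmb4 probe 15580, was at -1.565 in mouse 1 and at -0.06 and -0.01 in mice 3 and 4. H2-K1 was at -0.04, -0.47 and -0.29 in thymus mice 1, 3 and 4, below the pool in all 3 with a mean of -0.27 ± 0.21 (SD, n = 3). Cd74 probe 6906 was at -0.32, -0.005 and -0.23, and H2-Eb1 at -0.24, -0.11 and 0.045. The class II median was -0.10, the class I median -0.02, and the medians of core and regulatory probes were -0.002 and -0.001. Only 24 of the 72 probes had the same sign in both dyes, and 32.1% of all probes did. A thymus mean is thus mostly a mean of arrays that point in opposite directions.

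The difference between the tissues was tested as spleen minus thymus, and 16 of 71 probes passed, 14 lower and 2 higher. That fit used 1 shared spread for both tissues, although the median SD between mice was 0.157 in spleen and 0.085 in thymus. Over all probes 13.9% passed, 5.91% higher and 8.04% lower. With the mouse as a block, 1 of these 16 passed, Psmb7 (limma, adjusted p = 0.047), and without mouse 3 or without mouse 4 none did (limma). With IDs as given 8 passed. The calls were 5 of the 6 alpha subunits, Psmb7, Psmb4 probe 7064, Psmc6, Psmd2, Psmd11 probe 11357, Psmd14, Cd74 probe 16979, H2-DMb1 probe 251 and Psme3ip1 probe 14785 on the lower side, and Psmb11 and H2-Ke6 probe 7595 on the higher side. Psma1 differed most, at -0.76 in spleen and 0.01 in thymus, a difference of -0.77 (limma, adjusted p = 0.0217). Its thymus mean joins -0.11 with the mutant in Cy5 and 0.13 in Cy3. Where the thymus arrays cancel in this way, the difference largely restates the spleen value. No class I gene passed. H2-K1, lower in both tissues by its means, differed by -0.45 (limma, adjusted p = 0.0835), and Ctss by -0.50 (limma, adjusted p = 0.0553). Across the 71 probes the spleen and thymus means correlated at r = 0.371 (Spearman's rho = 0.417), as a description of probes that share arrays and mice, and 41 had the same sign.

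**Figure D5:**
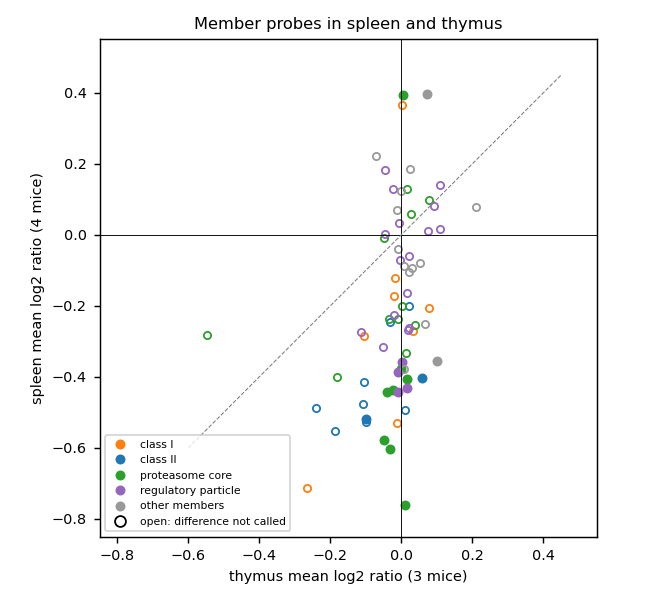
Mean log2 ratio of each probe tested in both tissues, in spleen (vertical axis, 4 mice) against thymus (horizontal axis, 3 mice), coloured by group; filled points passed the test of the difference and the dashed line marks equal values. Spleen means spread from -0.76 to 0.395 while most thymus means lie near 0.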

How the data were processed

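Per the labels, 20 µg of total RNA per sample was labelled with Cy3 or Cy5 and hybridised to cDNA arrays. The title of the series speaks of brain where the sample labels, followed here, say spleen. The deposited values are log ratios, taken as log2; what the authors did to background and normalization is not stated. Constants of over 10 in size were set to missing. Each tissue was fitted alone with limma 3.58.1 in R 4.3.3 on probes measured in at least 3 mice, and the difference in 1 fit of both, with Benjamini-Hochberg adjustment at 0.05. The fits were tested on simulated data with independent noise for each mouse. These held no error of the shared pool and no dye or position effect, so they cannot speak to those limits. Mouse numbers pair the tissues, since by the mouse IDs in the labels the same animals gave both; deviations correlated at -0.046, -0.010 and -0.086. Names come from the platform annotation, 11 rows further on. The symbols were checked by gene number against RefSeq (GRCm38.p6: 58 of 58 genes, 50 with a promoter). That check cannot tell whether a name belongs to the row it was moved to. Genes and lists were chosen with earlier results of these data known. Named are all H2 and loading probes, per proteasome role up to 6 called probes in each direction, and all probes of a gene with a call; other probes named as examples were chosen after their values were seen.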

Additional observations from a re-analysis of the deposited data

Results flagged for a closer look

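Among 71 probes with 4 spleen values, the H2, partner and proteasome probes and both Emp3 probes, 4 had a sample far from the others. These were Psma1 in mouse 3 at -1.27, Psmb6 probe 16002 in mouse 1 at -1.01, Psmd9 in mouse 2 at -0.315 and Psme4 in mouse 1 at -0.53. Chance alone flags about 1 group in 20.

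For 16 probes the spleen and thymus log ratios differed by a test of the difference (limma, adjusted p under 0.05), a count that fell to 1 with the mouse as a block. The thymus means used here are mostly of arrays that pointed in opposite directions. Spleen minus thymus was -0.77 for Psma1, -0.53 for Psma2, -0.41 for Psma4, -0.40 for Psma5 and -0.42 for Psma6 among the alpha subunits. It was -0.57 for Psmb7, -0.38 for Psmb4 probe 7064 and 0.39 for Psmb11 among the beta subunits. It was -0.38 for Psmc6, -0.45 for Psmd11 probe 11357, -0.435 for Psmd14 and -0.36 for Psmd2 in the regulatory particle. It was -0.42 for Cd74 probe 16979, -0.46 for H2-DMb1 probe 251, 0.32 for H2-Ke6 probe 7595 and -0.45 for Psme3ip1 probe 14785.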

How the results depend on the processing

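The alternative of IDs as given was added after the values were seen; the others were listed earlier. The number of mice and arrays limits precision, no intensities were used, and whether the pool resembles any single wild-type mouse was not tested. Leaving out 1 mouse gave 16 to 28 of these probes in spleen and 2351 to 4867 of all probes, 0 to 9 and 0 to 2260 for the difference, and 0 to 1 of all probes in thymus; the spleen counts were lowest without mouse 2 (16) and mouse 4 (18), and the difference gave 0 without mouse 3 or mouse 4. The joint fit of both tissues gave 38 in spleen. Setting array medians to 0, removing a running median, requiring all mice, robust moderation, keeping placeholders and accepting 1 array of a pair gave 27 to 29 in spleen.

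Turning the arrays with the mutant in Cy3 gave 0 of these and 1 of all probes in spleen, 0 and 0 for the difference, and a core minus regulatory median of -0.015. It reversed Tapbp (-0.015), H2-Ke6 probe 7595 (-0.022), Psma7 (0.08), Psmd14 (0.15) and Psme3ip1 probe 1641 (-0.14) in spleen, and H2-Ke6 probe 7595 (-0.01), Psma4 (0.038), Psma5 (0.083) and Psmd14 (0.047) for the difference. The pool's variance gave 7 and 1689 in spleen and 0 and 267 for the difference. The test against 1.2-fold gave 1 and 887, and 0 and 4. Gene means gave 2146 and 1117 of all genes and reversed Psme3ip1 probe 1641 (-0.024, the mean of its gene's probes). Thymus mouse 2 included gave 26 and 4553 for the difference. The replicate block, with the mouse as the block on 3 mice, gave 1 and 601.

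IDs as given gave 16 of these probes in spleen and 8 for the difference. They reversed, in spleen, H2-K1 (0.32), Tapbp (-0.30), Cd74 probes 6360 (0.30) and 16979 (0.01), H2-DMb1 probe 251 (0.05), H2-Ke6 probe 7595 (-0.44), Psma6 (0.13), Psma7 (0.006), Psmb9 (0.40), Psmc2 (0.17), Psmc5 probe 18151 (0.17), Psmc6 (0.245), Psmd11 probe 11357 (0.16), Psmg1 (-0.40) and Psme3ip1 probe 14785 (0.059). For the difference they reversed H2-DMb1 probe 251 (0.041), H2-Ke6 probe 7595 (-0.46), Psma1 (0.082), Psma6 (0.12), Psmc6 (0.24), Psmd11 probe 11357 (0.12) and Psme3ip1 probe 14785 (0.145). Those values belong to other rows of the table, which is why they differ.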
